A study of Mus musculus with 9 samples.

Results

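The enzymes that build heme and the reductases that make bilirubin were followed in mouse hepatoma cells as 9 genes: Alas1, Alad, Uros, Urod, Cpox, Ppox, Fech, Blvra and Blvrb. They were taken by gene symbol from 28932 genes with a gene ID in the deposited tables, of which 18257 had a count. For each gene the transcript with the highest mean read count over the 9 libraries was used. Each transcript was thus selected on its measured mean read count, which is given only as a description. All 9 genes passed the filter on low counts, which kept 12372 genes.

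Heme synthesis begins and ends in the mitochondrion and runs through the cytosol in between. Alas1 makes aminolevulinate and is the rate-limiting step in liver, where free heme represses it. Alad, Uros and Urod act on the way to coproporphyrinogen, Cpox and Ppox oxidise it to protoporphyrin, and Fech inserts iron. Heme oxygenase opens the ring to biliverdin, which Blvra reduces to bilirubin. Blvrb is a second biliverdin reductase. Hepatocytes use much of their heme for cytochrome P450 enzymes.

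Total RNA was sequenced from cells given FICZ at 10 nM for 6 h, tryptamine at 50 uM for 6 h, or control conditions over the same time, with 3 libraries in each group. FICZ is a ligand of the aryl hydrocarbon receptor (AhR), and the series asks whether tryptamine activates this pathway as a proligand. All libraries carry the source name Hepa 1 WT cells together with HC1C as cell line; the treatment label of the controls says untreated while the protocol speaks of vehicle. No label says whether libraries of a group were separate cultures, so p-values measure only the spread between these libraries, which may be technical. Cell number and RNA per cell cannot be told apart in such bulk samples.

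Totals over genes, with 1 transcript for each, were 11594790 to 16715844 counts per library. The hepatoma markers Alb (206 to 275 CPM, counts scaled to the library size), Afp (114 to 228 CPM) and Trf (410 to 482 CPM) were found in every library. Apoa2 was low, at 1.37 to 3.58 CPM, and Serpina1a had 7 counts in all. Ttr, Apoa1, Apob and Hnf4a were not found under these symbols among the genes with a count. The list, with 9 of 13 genes counted, summed to 4443 to 4606 CPM with FICZ, 4672 to 4877 CPM with tryptamine and 4915 to 6820 CPM in control. Erythroid markers, which would accompany another heme-making cell type, summed to 0.595 to 0.820 CPM with FICZ, 0.544 to 0.839 CPM with tryptamine and 0.406 to 1.79 CPM in control, with 8 of 10 genes counted; Alas2, the erythroid isoform of the first enzyme, had 11 counts over all libraries. Markers of other liver cells were mixed. Of 5 bile duct markers 4 were counted, with Krt7 at 820 to 1322 CPM but Krt19 at 0.541 to 2.32 CPM, and they summed to 1046 to 1098 CPM with FICZ, 1019 to 1098 CPM with tryptamine and 1114 to 1550.4 CPM in control. Of 7 fibroblast markers 6 were counted, with Col1a1 at 878 to 1316 CPM but Col1a2 at 0 to 0.512 CPM and Acta2 at 0.680 to 2.34 CPM, and they summed to 1549 to 1675 CPM with FICZ, 1556 to 1707 CPM with tryptamine and 1355 to 1634 CPM in control. Their part in the results was not tested. Control replicate 3 stood apart. Across genes its log CPM had correlations of 0.954 to 0.960 with the other libraries, which correlated among themselves at 0.987 or more. The enzymes' log2 changes against control are therefore given with and without it.

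The promoters of Cpox and Alad are shown because these enzymes carry the differences described here. The windows run from 250 bases before to 50 after the start site, are taken from RefSeq on build GRCm38.p6, and mark in capitals the letters GCGTG, the core of the site that the AhR and its partner ARNT bind. The Cpox window lies at chr16:58669958-58670257 on the plus strand and the Alad window at chr4:62520014-62520313 on the minus strand.
Cpox: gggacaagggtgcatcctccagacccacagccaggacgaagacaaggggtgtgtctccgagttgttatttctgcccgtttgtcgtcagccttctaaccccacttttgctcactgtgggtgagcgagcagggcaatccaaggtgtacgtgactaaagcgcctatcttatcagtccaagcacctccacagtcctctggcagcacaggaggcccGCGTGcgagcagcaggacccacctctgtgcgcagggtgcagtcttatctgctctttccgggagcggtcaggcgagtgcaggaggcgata
Alad: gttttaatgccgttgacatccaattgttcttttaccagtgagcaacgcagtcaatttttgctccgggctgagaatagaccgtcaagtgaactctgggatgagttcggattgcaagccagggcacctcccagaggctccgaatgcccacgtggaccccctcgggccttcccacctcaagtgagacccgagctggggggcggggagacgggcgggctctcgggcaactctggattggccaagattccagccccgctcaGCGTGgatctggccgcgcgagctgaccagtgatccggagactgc
In Cpox the match starts 39 bases before the start site, and in Alad 6 bases after it. For 8 of the 9 genes, all but Fech, 12 windows were found, since some genes have more than 1 start site. GCGTG, searched on both strands, occurred in 7 of these 12 windows, from 5 genes (Alas1, Alad, Cpox, Ppox and Blvrb), and in 32.4% of all 32851 windows of this length. The windows of Alas1 overlap and share their match, as do those of Alad. The antioxidant response core TGACNNNGC, also searched on both strands, occurred in 1 of the 12 windows, that of Blvra, and in 12.4% of all windows, and no match overlapped one of the other motif. A match describes the letters and does not show binding.

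Set per length of transcript, the steps stood at very unequal levels. Alad was the most abundant in each group, with 162 ± 4.09, 196 ± 8.48 and 253 ± 73.8 CPM per kb in FICZ, tryptamine and control cells (SD, n = 3). Uros was the least, with 4.04 ± 0.492, 4.17 ± 0.584 and 4.10 ± 0.868 CPM per kb in the same groups. Alas1 was next above it at 6.76 ± 0.477 with FICZ, 5.62 ± 0.578 with tryptamine and 5.74 ± 1.04 CPM per kb in control. The order among the middle genes differed between groups. Cpox, at 79.2 ± 5.14 CPM per kb, stood second in FICZ cells, above Fech at 60.0 ± 3.12 and Blvrb at 55.3 ± 1.84. In tryptamine cells Cpox (58.7 ± 1.85), Fech (59.9 ± 2.36) and Blvrb (56.8 ± 5.26 CPM per kb) differed by less than the SD of Blvrb. In control cells Cpox, at 39.5 ± 6.50 CPM per kb, lay below Blvrb (66.3 ± 19.2) and Fech (56.6 ± 10.3) and within an SD of Blvra (35.7 ± 10.2). This order depends on the transcript used. With the RefSeq mRNA of each gene, Blvrb had 66.5, 68.7 and 79.9 CPM per kb with FICZ, tryptamine and control. Fech then had 61.4, 61.2 and 58.0, and Cpox 81.0, 60.0 and 40.4 CPM per kb. Alad remained highest, at 214, 261 and 336 CPM per kb, and Uros lowest.

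**Figure D1:**
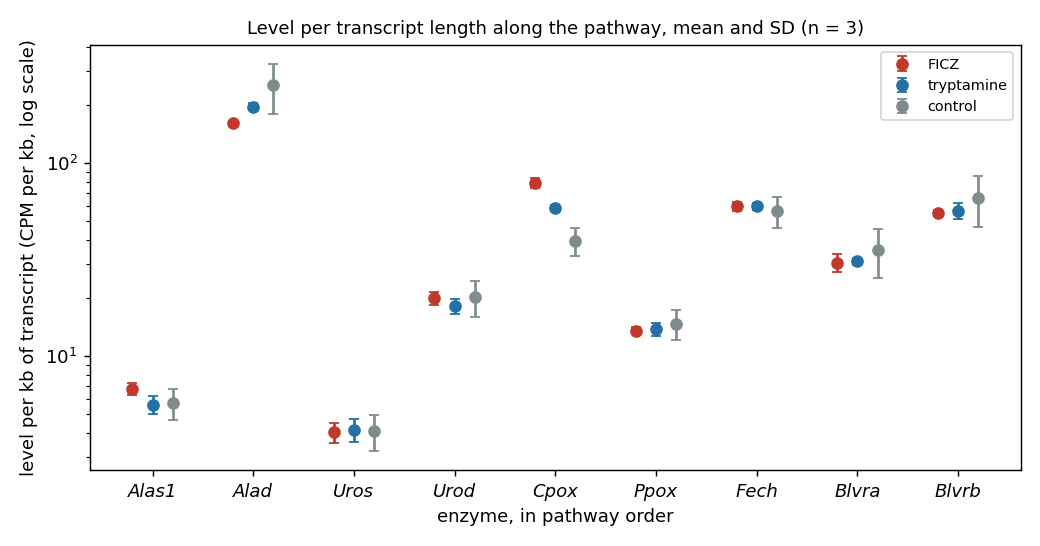
Mean level of each enzyme in CPM per kb of transcript on a log scale, in pathway order from left to right, with bars for the SD over 3 libraries of FICZ, tryptamine and control cells. Alad is highest and Uros lowest in every group; the groups of Cpox are ordered FICZ, tryptamine, control and those of Alad the other way.

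FICZ was compared with control to see which steps of the pathway 10 nM of this AhR ligand changed. Cpox was 2.01-fold higher and was the one step called, so 1 of 9 enzymes passed, against 0.113% of all 12372 genes tested (14 genes, all higher). The 9 enzymes and the gene lists below were chosen with earlier results of these data known. Their shares beside those of all genes may follow in part from that choice. Alad stood at 0.639 of its control level without passing. The other 7 enzymes had log2 changes from -0.26 to 0.24, and 0 of them passed.

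Alas1 (gene ID 11655), the regulated entry step, had 19.7, 17.9 and 17.2 CPM in the FICZ libraries, 13.7, 15.0 and 16.8 CPM in the tryptamine libraries and 13.3, 14.5 and 18.7 CPM in the control libraries. Each FICZ library was above each tryptamine library, and control replicate 3 reached into the FICZ range. Its log2 change with FICZ was 0.24 ± 0.156 (SE, adjusted p = 0.604), and 0.39 ± 0.145 (adjusted p = 0.312) without that control. With tryptamine the change was -0.03 ± 0.157 (SE, adjusted p = 0.956), and 0.12 ± 0.146 (adjusted p = 0.964) without it. The log2 difference of FICZ from tryptamine was 0.26 with a 95% interval of -0.08 to 0.61.

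Alad (gene ID 17025), aminolevulinate dehydratase, was lowest in FICZ cells. It had 290.2, 289.9 and 278 CPM in the FICZ libraries, 341, 364 and 337 CPM in the tryptamine libraries, and 388, 357 and 597 CPM in the control libraries. Every FICZ library was below every tryptamine and every control library, while tryptamine and control overlapped. With all libraries the log2 change with FICZ was -0.65 ± 0.164 (SE, 95% interval -1.01 to -0.28, adjusted p = 0.485). Without control replicate 3, which had the highest value, Alad fell by 0.38 on the log2 scale (SE 0.063, adjusted p = 0.000824). A fit with a correction for transcript length, which called 0.412% of genes, also called it, at -0.51 (adjusted p = 0.034). Alad passed in 6 of 24 alternatives, with adjusted p-values from 6.85e-07 to 0.834, and its log2 change was below 0 in all 24.

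**Figure D2:**
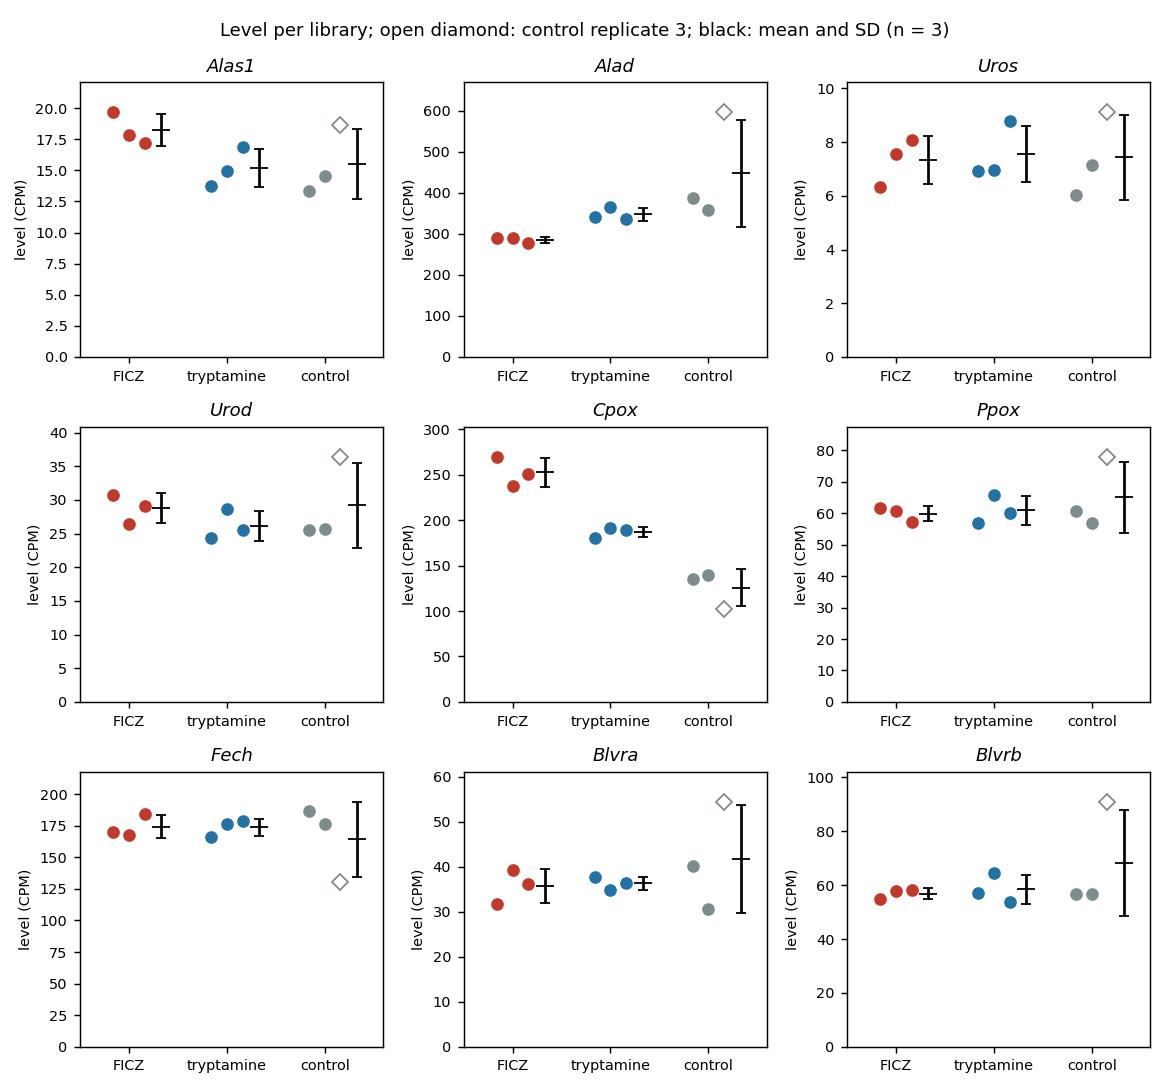
Level of the 9 enzymes in CPM in each library of FICZ, tryptamine and control cells, with the mean and SD (n = 3) in black; the open diamond is control replicate 3. The 3 FICZ libraries of Cpox lie above all others and those of Alad below all others, and control replicate 3 is the highest control for 7 of the genes and the lowest for Cpox and Fech.

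Of the enzymes between Alad and Cpox, Uros (gene ID 22276), uroporphyrinogen III synthase, had 6.33, 7.56 and 8.07 CPM with FICZ, 6.94, 6.95 and 8.78 CPM with tryptamine and 6.02, 7.15 and 9.13 CPM in control. Urod (gene ID 22275), which removes carboxyl groups from uroporphyrinogen, had 30.8, 26.4 and 29.1 CPM with FICZ, 24.3, 28.7 and 25.6 CPM with tryptamine and 25.5, 25.7 and 36.4 CPM in control. The 3 groups overlapped for both genes. The log2 changes with FICZ were -0.02 for each, with 95% intervals of -0.46 to 0.43 for Uros and -0.36 to 0.32 for Urod (adjusted p = 0.977 and 0.962). With tryptamine they were 0.03 (interval -0.42 to 0.48) and -0.16 (-0.50 to 0.19). Without control replicate 3 the log2 changes with FICZ were 0.15 ± 0.206 for Uros and 0.17 ± 0.119 for Urod (SE, adjusted p = 0.867 and 0.699). Each FICZ library of Urod then lay above both controls, as did those of 13.9% of all genes. With tryptamine the log2 changes were 0.20 for Uros and 0.03 for Urod without that control.

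Cpox (gene ID 12892), coproporphyrinogen oxidase, was the one enzyme of the 9 that rose with FICZ in the fit to all libraries. Its FICZ libraries had 269.7, 237 and 250.4 CPM, its tryptamine libraries 180.3, 191 and 189 CPM, and its control libraries 136, 139.8 and 102 CPM. The 3 groups were fully separate, with FICZ highest and control lowest. The means were 252 ± 16.4 CPM with FICZ, 187 ± 5.89 CPM with tryptamine and 126 ± 20.7 CPM in control (SD, n = 3).

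The log2 change of Cpox with FICZ was 1.00 ± 0.123 (SE, 95% interval 0.73 to 1.27, adjusted p = 0.0147). By size of p Cpox ranked 5th in that comparison. The log2 change was 0.87 ± 0.071 without control replicate 3 (SE, adjusted p = 7.96e-09), where 2 of the 9 enzymes, Cpox and Alad, and 0.805% of 12539 genes were called. DESeq2's Wald test called 1 enzyme, Cpox, and 0.357% of genes, and limma voom with sample weights called Cpox and Alad and 0.921% of genes. The call was lost in 7 of 24 alternatives, although the log2 change stayed between 0.87 and 1.09 in all 24. These were the removal of FICZ replicate 1, 2 or 3 (adjusted p = 0.149, 0.0743 and 0.108), a fit of FICZ and control alone (0.134), the replicate block (0.0572), sums over transcripts (0.115) and the second transcript (0.133).

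In the authors' deposited table Cpox had a log2 change of 0.96 with FICZ (adjusted p = 2.21e-17), and all 5 of its listed transcripts had an adjusted p under 0.05. It was also the one of the 9 genes in the authors' deposited list of 81 genes with higher transcripts after FICZ, with 4 of its 5 transcripts and a mean log2 change of 1.05. The authors' deposited table gave Alad a log2 change of -0.72 with FICZ (adjusted p = 1.87e-15), with 4 of 5 transcripts called. Of the other 7 enzymes, the authors' deposited table called 1 transcript, that of Blvrb with the lowest adjusted p of 0.0499, among 10 of that gene.

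Ppox (gene ID 19044), protoporphyrinogen oxidase, had 61.8, 60.6 and 57.1 CPM with FICZ, 56.8, 65.7 and 60.2 CPM with tryptamine and 60.7, 56.8 and 78.0 CPM in control. The groups overlapped, and the log2 changes were -0.12 (95% interval -0.41 to 0.16) with FICZ and -0.10 (-0.38 to 0.19) with tryptamine. They were 0.03 and 0.05 without control replicate 3. Its value is uncertain, because the chosen transcript of 4411 nt shares 791 exon bases with B4galt3 on the opposite strand in GENCODE and the sources do not say whether counting used strand. The RefSeq mRNA of 1821 nt had 31.1, 27.2 and 21.7 CPM with FICZ, 31.2, 34.7 and 30.1 CPM with tryptamine and 29.2, 25.2 and 33.3 CPM in control. These groups overlapped as well. Other transcripts of Cpox and Alas1, not the ones used, share 204 exon bases with Gpr15 and 465 with 4930500F10Rik, also on opposite strands.

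Fech (gene ID 14151), ferrochelatase, which closes the pathway, had 170.0, 168 and 184 CPM with FICZ, 166, 176 and 179 CPM with tryptamine and 186, 176 and 130.3 CPM in control. Its groups overlapped, with the lowest value in control replicate 3. The log2 change was 0.08 with each treatment (95% interval -0.20 to 0.36), and -0.06 with each when control replicate 3 was left out.

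Blvra (gene ID 109778), the main biliverdin reductase of adult tissue, had 31.7, 39.2 and 36.2 CPM with FICZ, 37.8, 34.9 and 36.3 CPM with tryptamine and 40.0, 30.7 and 54.4 CPM in control. Blvrb (gene ID 233016), which also reduces flavins, had 54.7, 57.7 and 58.2 CPM with FICZ, 57.2, 64.4 and 53.8 CPM with tryptamine and 56.7, 56.8 and 91.0 CPM in control. Groups overlapped for both. With FICZ the log2 changes were -0.22 ± 0.182 for Blvra and -0.26 ± 0.174 for Blvrb (SE, adjusted p = 0.642 and 0.604), and 0.02 and 0.00 without control replicate 3. With tryptamine they were -0.20 and -0.22, and 0.04 for each without that control. The ratio of Blvra to Blvrb per kb was 0.552 ± 0.0442 with FICZ, 0.550 ± 0.0637 with tryptamine and 0.541 ± 0.0743 in control (SD, n = 3).

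**Figure D3:**
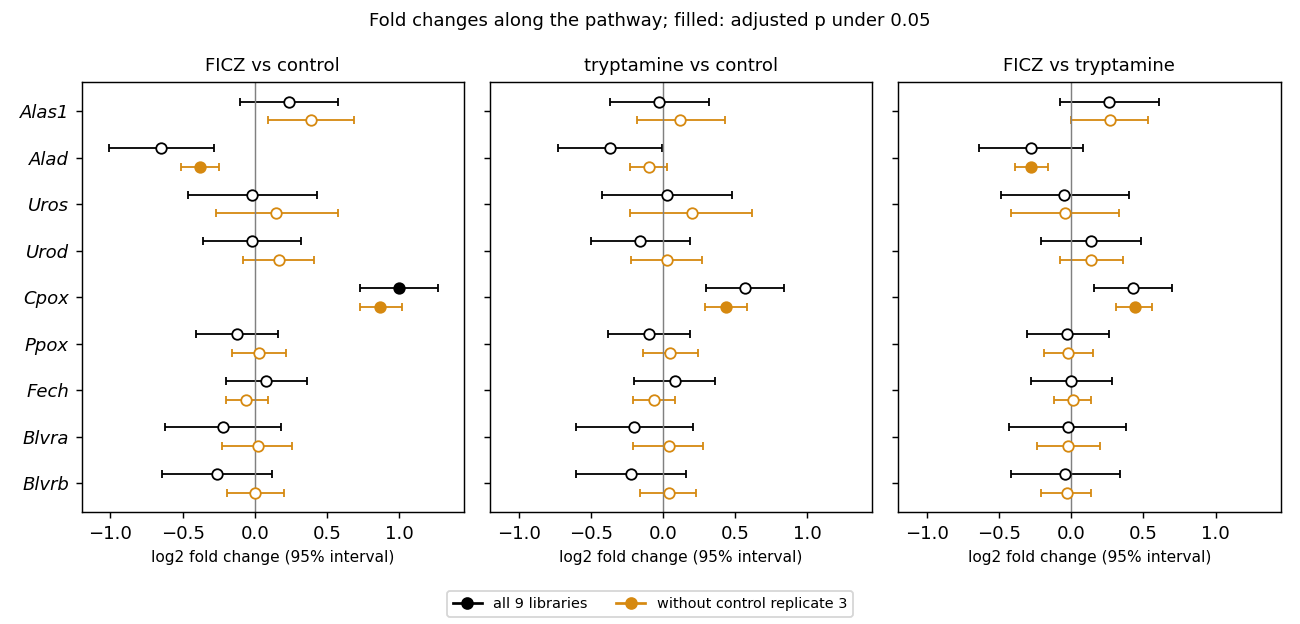
Log2 fold change of each enzyme with its 95% interval for FICZ over control, tryptamine over control and FICZ over tryptamine, from all 9 libraries (black) and without control replicate 3 (orange); filled points have an adjusted p under 0.05. With all libraries the one filled point is Cpox with FICZ, at 1.00; without control replicate 3 Cpox is filled in each comparison and Alad in both that involve FICZ.

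Tryptamine was set against control along the same steps, and Cpox again had the largest log2 change of the 9. It was 1.49-fold higher, with each tryptamine library above each control library, but its log2 change of 0.57 ± 0.122 (SE, 95% interval 0.30 to 0.84) had an adjusted p of 0.741. For Alad the log2 change was -0.37 ± 0.163 (SE, adjusted p = 0.741). By edgeR's quasi-likelihood test 0 of 9 enzymes were called, against 0.00808% of all genes (1 gene, Cyp1a1). At an unadjusted p under 0.05 there were 2 of 9, Cpox and Alad, against 5.15% of all genes. DESeq2's Wald test called 0 enzymes (0.0383% of genes) and limma voom with sample weights 1, Cpox (0.154%). Without control replicate 3, Cpox rose by 0.44 ± 0.071 (SE, adjusted p = 0.00297) and Alad stood at -0.10 ± 0.063 (adjusted p = 0.863), with 0.199% of genes called. In the authors' deposited table the values with tryptamine were 0.52 for Cpox (adjusted p = 0.00898) and -0.44 for Alad (adjusted p = 0.00619). None of the 9 genes was in the authors' deposited tryptamine list of 22 genes. The FICZ and tryptamine comparisons share their control libraries.

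FICZ and tryptamine were also set against each other, at doses that differ. Cpox was 1.35-fold higher with FICZ, a log2 difference of 0.43 ± 0.121 (SE, 95% interval 0.16 to 0.70, adjusted p = 1), and Alad differed by -0.28 ± 0.163 (SE, interval -0.64 to 0.08, adjusted p = 1). In the authors' deposited table the differences were 0.44 for Cpox (adjusted p = 3.49e-05), with all 5 transcripts under 0.05, and -0.28 for Alad (adjusted p = 0.207). By edgeR's quasi-likelihood test 0 of 9 enzymes and 0% of genes were called. At an unadjusted p under 0.05 there was 1 enzyme, Cpox, against 1.73% of genes; DESeq2's Wald test called 0 enzymes (0.0383% of genes) and limma voom with sample weights 1, Cpox (0.145%). When these 6 libraries were fitted with no control among them, Cpox was called at a log2 difference of 0.44, as were 0.140% of genes. Without control replicate 3, which bears on this difference through the shared spread, scaling and filter, Cpox was higher with FICZ by 0.44 ± 0.062 (SE, adjusted p = 0.000349) and Alad lower, at -0.28 ± 0.057 (SE, adjusted p = 0.037), with 0.136% of genes called. Intervals for the other 7 enzymes with all libraries ran from at lowest -0.49, for Uros, to at highest 0.61, for Alas1, which does not show that the treatments act alike on them.

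Groups that do not overlap were frequent among all genes. In FICZ against control, 1 enzyme had all FICZ libraries higher and 1 all lower, against 8.22% and 7.40% of genes. In tryptamine against control these were 1 and 0 enzymes, against 5.19% and 4.87% of genes, and in FICZ against tryptamine 2 and 1, against 5.46% and 5.85%. The median log2 change of the 9 enzymes was -0.02 with FICZ (range -0.65 to 1.00), -0.10 with tryptamine (-0.37 to 0.57) and -0.02 between the treatments, beside medians of -0.01, 0.00 and 0.00 over all genes tested.

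Ratios between steps, taken within each library per kb of transcript, describe the balance between them. Cpox over Alad was 0.516, 0.454 and 0.501 in FICZ libraries, 0.294, 0.292 and 0.312 in tryptamine libraries and 0.194, 0.217 and 0.0949 in control libraries. Cpox over Fech was 1.44, 1.29 and 1.24 with FICZ, 0.990, 0.990 and 0.964 with tryptamine and 0.663, 0.723 and 0.713 in control. Neither ratio had overlapping groups, and for Cpox over Fech control replicate 3 lay between the other controls. Alad over Alas1 averaged 24.0 ± 1.28 with FICZ, 35.2 ± 4.04 with tryptamine and 43.6 ± 5.66 in control (SD, n = 3); the FICZ libraries lay below all others, and tryptamine and control overlapped. These ratios reuse the same measurements as the single genes and were not tested.

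**Figure D4:**
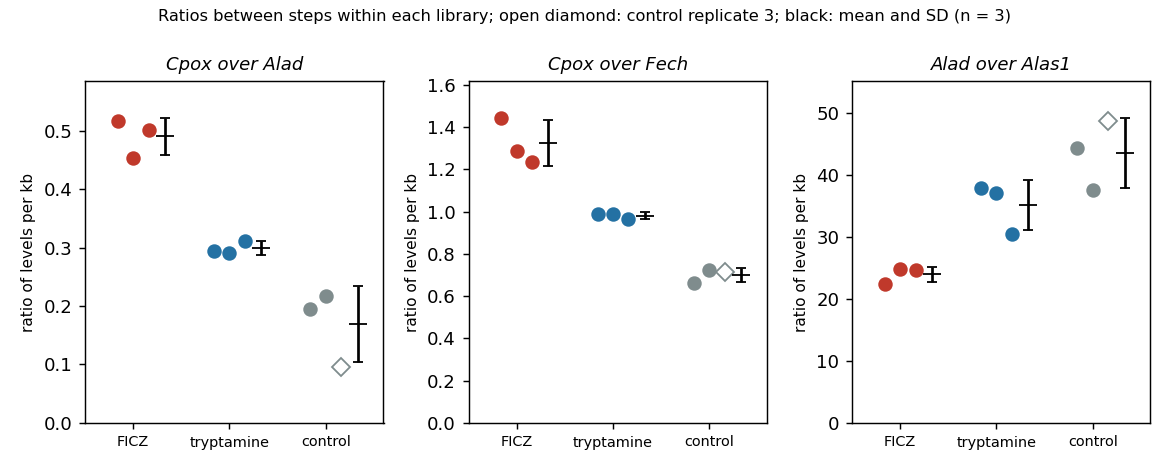
Ratios of levels per kb between enzymes within each library for FICZ, tryptamine and control cells, with mean and SD (n = 3) in black and control replicate 3 as an open diamond. Cpox over Alad and Cpox over Fech fall into 3 separate groups, highest with FICZ at means of 0.490 and 1.32 and lowest in control at 0.169 and 0.700.

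Across libraries Cpox and Alad ran in opposite directions, with Pearson's r of log2 CPM of -0.92 over 9 libraries and -0.91 over the 8 without control replicate 3. Alas1 and Cpox correlated at 0.35 over all 9 libraries and at 0.88 over 8. These libraries share treatments, so the values are descriptions. The tested genes whose pattern over the 9 libraries was most like that of Cpox were Xdh, xanthine dehydrogenase (r = 0.991, and 0.983 over 8 libraries), Cldnd1, a claudin domain protein (0.986 and 0.974), and Mpp2, a membrane palmitoylated protein (0.984 and 0.975). Cldnd1 lies beside Cpox on mouse chromosome 16, with 1 protein-coding gene, Gpr15, between them. It had 190.2, 189.9 and 184 CPM with FICZ, 163, 167 and 169 CPM with tryptamine and 132, 134 and 115 CPM in control, in the same order as Cpox without overlap. Its log2 change with FICZ was 0.56 (adjusted p = 0.0578). Cldnd1 was named for its likeness to Cpox in these same libraries, so its order and its change follow in part from that choice.

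Control replicate 3 departed from the other controls by transcript length, and the enzymes partly followed this. Its median log2 difference from them was 0.63 for the 1143 genes with transcripts up to 1000 nt long and -0.85 for the 1325 genes above 6000 nt. The short transcripts of Blvrb, Blvra, Urod and Alad stood at 0.68, 0.63, 0.51 and 0.68 above the mean of control replicates 1 and 2, beside medians of 0.48, 0.48, 0.48 and 0.31 for genes of their length class. Cpox (-0.43, class median -0.11) and Fech (-0.48, class median 0.12) were lower in it, and Ppox, with the longest chosen transcript, was higher (0.41, class median -0.37). How much of each value comes from length was not tested beyond the fits with a length correction and without this library.

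**Figure D5:**
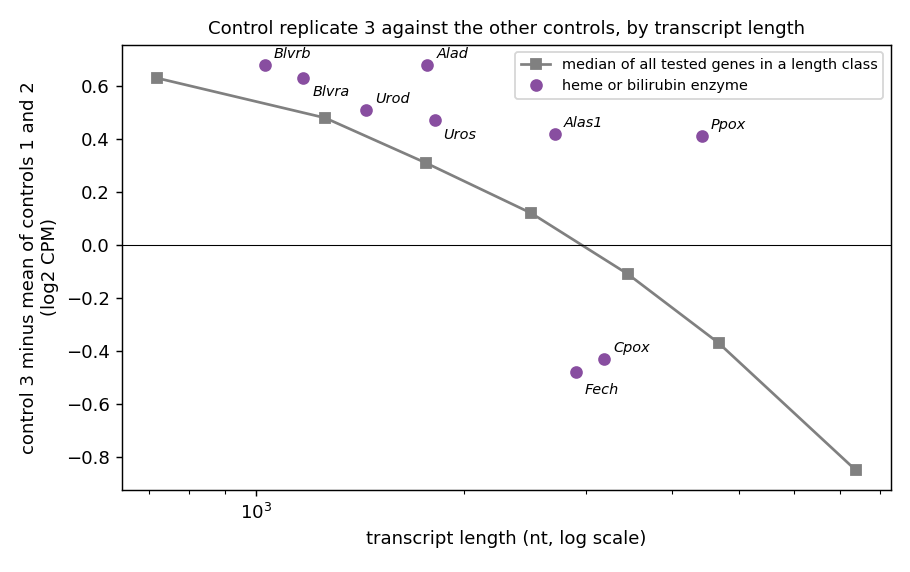
Log2 CPM of control replicate 3 minus the mean of control replicates 1 and 2 against transcript length on a log scale, for the 9 enzymes (circles) and as the median of all tested genes in 7 length classes (squares). The class medians descend from 0.63 to -0.85, Cpox and Fech lie below the line, and Ppox lies above it.

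Of the heme oxygenases, which supply biliverdin, the inducible Hmox1 had 20.4 ± 3.06 CPM with FICZ, 19.1 ± 3.87 CPM with tryptamine and 15.9 ± 3.69 CPM in control (SD, n = 3), a log2 change of 0.36 ± 0.209 with FICZ (SE, adjusted p = 0.604). Hmox2, the constitutive form, had 28.4 ± 2.71 CPM with FICZ, 28.3 ± 3.61 CPM with tryptamine and 31.9 ± 6.31 CPM in control, a log2 change with FICZ of -0.17, and 0.00 without control replicate 3. By edgeR's quasi-likelihood test with all libraries neither gene passed in any comparison, neither had an unadjusted p under 0.05, and DESeq2's Wald test and limma voom called neither; without control replicate 3 the log2 change of Hmox1 with FICZ was 0.51 ± 0.176 (SE, adjusted p = 0.262).

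Genes that move porphyrins, heme and mitochondrial substrates (12 of 14 tested) and genes of iron supply and iron-sulfur clusters (15 of 16 tested) had 0 calls in every comparison by edgeR's quasi-likelihood test, DESeq2's Wald test and limma voom. At an unadjusted p under 0.05 the transport genes had 0, and the iron genes had 1 with each treatment, with tryptamine Slc25a37 (mitoferrin 1, log2 0.32, adjusted p = 0.741, and 0.17 without control replicate 3), beside 8.12% and 5.15% of all genes. Their median log2 changes were -0.04 and -0.01 with FICZ and 0.00 and 0.10 with tryptamine. Transcripts of the transferrin receptor Tfrc, which takes up iron, stood at 503 ± 18.9 CPM with FICZ, 489.6 ± 59.9 CPM with tryptamine and 430.1 ± 85.6 CPM in control (SD, n = 3). The log2 change of Tfrc with FICZ was 0.23 ± 0.143 (SE, adjusted p = 0.604), and 0.07 ± 0.075 without control replicate 3.

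Of 10 tested genes that control Alas1 or respond to heme, 0 passed with all libraries by edgeR's test, with 2 at an unadjusted p under 0.05 with each treatment, Nfe2l2 and Nr1i3, beside 8.12% of all genes with FICZ and 5.15% with tryptamine. Nfe2l2 encodes NRF2, which drives heme oxygenase and other antioxidant genes. It had 288 ± 3.56 CPM with FICZ, 260.1 ± 6.95 CPM with tryptamine and 213 ± 11.5 CPM in control (SD, n = 3), a log2 change with FICZ of 0.43 ± 0.082 (SE, adjusted p = 0.127). Without control replicate 3 it rose by 0.40 ± 0.064 (SE, adjusted p = 0.000475) with FICZ. Nr1i3, the nuclear receptor CAR, had log2 changes of -0.34 ± 0.146 with FICZ and -0.32 ± 0.146 with tryptamine (SE, adjusted p = 0.601 and 0.741), and of -0.15 and -0.14 without control replicate 3. DESeq2's Wald test and limma voom each called 1 gene of this list with FICZ and 0 in the other comparisons, and its median log2 change was 0.04 with FICZ and 0.10 with tryptamine.

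Among 15 tested hemoproteins and their electron donors, 3 rose with FICZ, 1 with tryptamine, and 0 fell, against 0.113% and 0.00808% of all genes called. Cyp1a1, a P450 induced through the AhR, had 1002.8 ± 45.2 CPM with FICZ, 703 ± 44.0 CPM with tryptamine and 59.2 ± 4.31 CPM in control (SD, n = 3). Its log2 changes were 4.08 ± 0.101 and 3.57 ± 0.099 (SE, adjusted p = 5.04e-09 and 1.66e-08). Cyp1b1 (log2 1.74 ± 0.234, adjusted p = 0.0224) and Cyp2s1 (0.95 ± 0.132, adjusted p = 0.0238) also rose with FICZ. Por, which passes electrons to all microsomal P450 enzymes, had 214 ± 13.8 CPM with FICZ, 166 ± 11.6 CPM with tryptamine and 143 ± 13.1 CPM in control, a log2 change with FICZ of 0.58 ± 0.103 (SE, adjusted p = 0.108). Without control replicate 3, Por (0.51 ± 0.076, adjusted p = 0.000235) and Cyp1a2 (adjusted p = 0.00554) made 5 that rose with FICZ, and 3 rose with tryptamine, against 0.805% and 0.199% of all genes called. Cyp1a2 had 115 counts over all libraries, so its calls rest on low counts. It stood at 1.41 ± 0.785 CPM with FICZ, 1.22 ± 0.678 CPM with tryptamine and 0.0284 ± 0.0493 CPM in control (SD, n = 3). With all libraries its log2 changes were 5.41 ± 1.005 with FICZ and 5.19 ± 1.028 with tryptamine (SE, adjusted p = 0.118 and 0.708). Between FICZ and tryptamine 0 passed with all libraries, with 4 at an unadjusted p under 0.05 (1.73% of all genes), 1 by DESeq2's Wald test and 3 by limma voom; Cyp1a1, Cyp2s1 and Por were higher with FICZ without control replicate 3. The median log2 change of the list was 0.06 with FICZ and 0.09 with tryptamine.

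For the fate of bilirubin after Blvra and Blvrb, 5 of 11 genes of uptake, conjugation and export were tested, and 0 passed with all libraries by edgeR's test. At an unadjusted p under 0.05 there were 2 with FICZ, 1 with tryptamine and 2 between the treatments, from Ugt1a2 and Gsta4, beside 8.12%, 5.15% and 1.73% of all genes. Ugt1a2, a UDP-glucuronosyltransferase whose reads can overlap those of other Ugt1a genes, had 10.7 ± 1.48 CPM with FICZ, 8.31 ± 0.511 CPM with tryptamine and 6.10 ± 0.501 CPM in control (SD, n = 3). Its log2 change with FICZ was 0.81 ± 0.167 (SE, adjusted p = 0.194), and 0.87 ± 0.193 (adjusted p = 0.0242) without control replicate 3. Gsta4, a glutathione transferase, had a log2 change with FICZ of 0.56 ± 0.205 (SE, adjusted p = 0.601), and rose by 0.78 ± 0.141 (SE, adjusted p = 0.00283) without that control. With FICZ, DESeq2's Wald test called 1 gene of this list and limma voom 2, and in the other comparisons both called 0. The median log2 change of the 5 genes was 0.56 with FICZ and 0.23 with tryptamine, which are the values of Gsta4 and Abcc2. Gsta3, with 110 counts in all, had 0.79 with FICZ. The export genes Abcc2 and Abcc3 had log2 changes of 0.17 and -0.05 with FICZ (adjusted p = 0.769 and 0.892). Without control replicate 3 these were -0.13 and -0.19. Ugt1a1, Gsta1, Gsta2, Slco1a1, Abcc1 and Slco1b2, the last with 4 counts in all, were not tested.

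The choice of transcript rested on narrow differences for most enzymes. For Alas1 and for Fech 1 other transcript had the same count in every library. That of Alas1 is 2871 nt long, against 2702 nt for the one used, which would lower its level per kb. The next values given for both genes are those of the transcript after the tie. The chosen transcript of Cpox had a mean of 2748.2 counts and the next 2354.2. For Alad these were 5097.4 and 5070.1, for Alas1 234.8 and 231.3, for Uros 106.9 and 106.8 and for Urod 400.3 and 391.0. Fech had 2470.7 and 2234.8, Ppox 886.2 and 880.4, Blvra 542.2 and 538.2, and Blvrb 870.0 and 862.4.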

How the data were processed

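The data are RNA-seq counts from 9 libraries in 3 groups. Per the file headers, the authors deposited read counts per transcript as whole numbers, their p-values and adjusted p-values per transcript, and their log2 fold changes between the groups of each table, first over second. DESeq is named, with no version, per the submitters' processing notes. The sources used here name no aligner, counting rule, genome build or annotation. The 3 tables list 189660 transcripts with their lengths, and the 9 repeated count columns were identical between tables. A further 18 columns of normalised values were not used. Left out were transcripts that lack a gene ID, with 3.56 to 4.23% of counts; a RefSeq identifier placed 928 of the 5653 entries that name several loci.

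One transcript per gene, that with the highest mean count, entered 1 edgeR 4.0.16 fit (R 4.3.3) of all 9 libraries with TMM scaling, filterByExpr, group as the only term, the quasi-likelihood test and Benjamini-Hochberg adjustment over all 12372 genes tested; under 0.05 a gene is called, and is said to have risen or fallen. Where no other tool is named, adjusted p-values are those of this test. The SE was obtained as log2 change over the square root of F. CPM are counts scaled to the effective library size, and CPM per kb divides them by the transcript length in the tables. The scripts were tested on simulated data.

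The 9 enzymes and all gene lists were chosen with earlier results of these data known. Named genes are the 9 enzymes and the 3 genes most like an enzyme that passed. In each pathway list they are those that passed and up to 3 with the smallest p. Hmox2, Tfrc, Por, Abcc2 and Abcc3 are named for their role. Some genes of the lists are counted but not reported singly here. Alternatives were DESeq2 1.42.0 size factors and Wald test, limma 3.58.1 voom with sample quality weights, other filters, transcripts and sums, a loess length correction (span 0.5), a replicate block, the libraries of a pair alone and leaving out each library. Gene overlaps came from GENCODE M21, neighbours and promoters from RefSeq.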

Additional observations from a re-analysis of the deposited data

How the results depend on the processing

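Of 24 alternatives, 20 were planned and 4 chosen after seeing the data: the RefSeq mRNA of each gene, and the length correction, DESeq2's Wald test and the replicate block, each without control replicate 3. With all libraries the genes called numbered 14 with FICZ, 1 with tryptamine and 0 between them, and the enzymes called 1, 0 and 0. In that order, the counts of genes were 50, 7 and 7 with DESeq2's Wald test, 114, 19 and 18 with limma voom, 51, 6 and 5 with the length correction, 26, 2 and 0 without a filter, 2, 1 and 17 in fits to the 6 libraries of a pair, 4, 2 and 0 for sums over transcripts and 7, 1 and 0 for the second transcript. Enzymes called were 1, 0 and 0 with DESeq2's Wald test and without a filter, 2, 1 and 1 with voom, 2, 0 and 0 with the length correction, 0, 0 and 1 in the pairs, and 0 throughout for sums and the second transcript. Leaving out 1 library gave 4 to 101, 1 to 25 and 0 to 17 genes and 0 to 2, 0 to 1 and 0 to 2 enzymes; the highest counts came without control replicate 3. Without that control, the length correction gave 117, 28 and 21 genes and 2, 1 and 2 enzymes, and DESeq2's Wald test 130, 35 and 29 genes and 2, 1 and 2 enzymes. The RefSeq mRNA, DESeq2's size factors and the filter of 10 counts kept each count. Why these counts differ was not tested.

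The replicate block gave 4, 1 and 0 genes and no enzyme, 35, 5 and 2 genes and 1, 0 and 0 enzymes with the length correction, and 206, 45 and 37 genes and 2, 1 and 2 enzymes without control replicate 3. Of the pairs of libraries with equal numbers, 1 of 9 had a correlation of deviations over 0.1, with a range of -0.06 to 0.12. Between FICZ and tryptamine libraries these pairs had 0.054, 0.044 and 0.116, and pairs with unequal numbers had -0.122 to 0.079. Whether the number pairs the libraries is not settled by these values.

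No called change turned direction in any alternative. Scaled by DESeq2's size factors or by total counts, all 54 group means in CPM moved by less than 1 SD. Of the 648 alternative fold changes of single enzymes, 21 gained a call and 7 lost one. After rounding to 2 decimals, with 0.00 counted as a sign of its own, 100 had another sign. None of these was called, and 50 of them moved by at least their SE. The 100 include changes near 0. Fech between FICZ and tryptamine, at 0.00 with all libraries, kept its sign in 4 of 24, with all values from -0.04 to 0.03. With all libraries Uros, which had the lowest counts, had the widest interval in each comparison; the part of depth was not tested.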
